A study of Mus musculus with 64 samples.

Results

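Brain endothelial genes are described here across the striatum of 16 mice. They are Cldn5, Cdh5, Pecam1, Flt1, Kdr, Tek, Slc2a1, Abcb1a and Slco1a4, a list chosen by name as genes of the cells that line the vessels of the brain. These 9 genes are 9 of 23420 listed in the files, and all 9 were among the 15446 genes with enough reads to be tested. The groups were 8 mice labelled Csnk1e knockout and 8 mice labelled wild type, all untreated and about 50 days old. Tissue punches of both striatal hemispheres were pooled for each mouse, and polyadenylated RNA was sequenced on 4 lanes, whose counts were summed. The labels leave out strain, sex and which part of Csnk1e, the casein kinase 1 epsilon gene, was deleted. A striatal punch holds every cell type of the region, so in these bulk samples fewer endothelial cells and less RNA per endothelial cell cannot be told apart.

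Endothelial cells of the brain are joined by tight junctions, and substances pass between blood and brain mainly through their carriers and pumps. This barrier is held up by signals from pericytes, astrocytes and neurons, among them Wnt ligands, vascular endothelial growth factor (VEGF) and angiopoietins. Capillaries make up most of the vessel bed of the striatum, with endothelium and pericytes in direct contact.

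Libraries held 22088005 to 30238947 gene reads. The targeted gene did not follow the labels. Csnk1e lay between 38.0 and 79.5 CPM (a gene's reads scaled to one common library total) in labelled knockouts and between 42.1 and 86.2 CPM in labelled wild types. No library lay between 44.9 and 72.2 CPM, and libraries of both labels stood on both sides. On the high side were labelled knockouts 1 to 5 and labelled wild types 4 to 7. On the low side were labelled knockouts 6 to 8 and labelled wild types 1, 2, 3 and 8. Directions below are therefore between labelled groups, and none of them can be read as an effect of Csnk1e loss. The tissue label was checked with 12 genes of striatal projection neurons, all tested. Their summed level was 3910 to 5500 CPM in labelled knockouts and 3608 to 5901 CPM in labelled wild types. The 8 genes of cortical excitatory neurons summed to 540 to 1087 CPM in labelled knockouts and 566 to 1199 CPM in labelled wild types. These levels do not give the share of neighbouring tissue in a punch. Choroid plexus transcripts were far higher in labelled knockout 1 and labelled wild type 7 than elsewhere, with Prlr, a prolactin receptor gene strong in that tissue, at 23.7 and 45.5 CPM, against 0.921 to 3.28 CPM in the other 14. Both are treated separately where they bear on a result.

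Positions are those of GENCODE on GRCm38, with Tek at chr4:94739289-94874976 on the forward strand, Flt1 at chr5:147561604-147726011 and Kdr at chr5:75932827-75978458 on the reverse strand, and Abcb1a at chr5:8660077-8748575 on the forward strand. Slc2a1 lies at chr4:119108711-119137983 and Slco1a4 at chr6:141805440-141856199, on the forward and the reverse strand. The junction genes are Cldn5 at chr16:18776847-18778262 and Cdh5 at chr8:104101625-104144511, both forward, and Pecam1 lies at chr11:106654217-106750628 on the reverse strand.

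Promoter sequence is shown for the members with the closest, a middle and the loosest tie to the rest of the list in the correlations given further on. The 250 bases before the RefSeq transcription start (GRCm38.p6) follow for Flt1 on the reverse strand at chr5:147726012-147726261, for Tek on the forward strand at chr4:94739039-94739288 and for Cldn5 on the forward strand at chr16:18776597-18776846. Capitals mark matches, on either strand, to short motifs. These are AGGAAG or CGGAAG for ETS factors, AGATAA for the zinc finger family named after that site, TAAACA for forkhead factors, TCAAAG for the factors of Wnt signalling and ACAAAG for SOX factors.
Flt1: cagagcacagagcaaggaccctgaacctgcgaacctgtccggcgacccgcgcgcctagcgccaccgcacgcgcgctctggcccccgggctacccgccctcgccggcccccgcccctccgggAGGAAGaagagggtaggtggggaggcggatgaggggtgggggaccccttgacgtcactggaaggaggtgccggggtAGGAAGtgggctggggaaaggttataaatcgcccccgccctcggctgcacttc
Tek: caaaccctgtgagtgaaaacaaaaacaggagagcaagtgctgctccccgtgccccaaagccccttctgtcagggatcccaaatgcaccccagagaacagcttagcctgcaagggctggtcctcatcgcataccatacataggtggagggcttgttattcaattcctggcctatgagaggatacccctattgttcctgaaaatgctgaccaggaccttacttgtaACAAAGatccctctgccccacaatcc
Cldn5: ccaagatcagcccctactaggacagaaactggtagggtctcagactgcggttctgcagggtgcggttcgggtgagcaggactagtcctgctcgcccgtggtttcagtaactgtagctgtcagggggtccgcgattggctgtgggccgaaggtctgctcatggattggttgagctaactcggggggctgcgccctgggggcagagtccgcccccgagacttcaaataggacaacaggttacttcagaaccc
The Flt1 window held AGGAAG at 2 places, the Tek window held ACAAAG at 1 place, and the Cldn5 window held 0 of these strings. Of the 7 members with a promoter in the RefSeq table, AGGAAG lay in 3 (Abcb1a, Flt1 and Slco1a4), against 29.5% of 32851 mouse promoter windows of the same length. ACAAAG lay in 2 of the 7 (Abcb1a and Tek), against 16.5% of all windows, and CGGAAG lay in 0 of the 7, against 13.6%. The Abcb1a window, at chr5:8566841-8567090, lies far before the Abcb1a start given above. For Abcb1a and Slco1a4 the bases just after the window were found in no GENCODE transcript of the gene. Their starts are therefore less certain. A match is a string of letters and not evidence that a factor binds there.

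The members differed widely in level once reads were divided by gene length (RPKM, which is CPM per kilobase of exon). Slc2a1, the glucose carrier GLUT1 found in endothelium and, at lower levels, in astrocytes, was the highest at 33.0 ± 4.01 RPKM (SD, n = 16). Cldn5, the main claudin of brain endothelial tight junctions, followed at 26.2 ± 3.07 RPKM. Slco1a4, an organic anion carrier, stood at 19.4 ± 1.54 RPKM, and Abcb1a, which encodes the drug efflux pump P-glycoprotein, at 9.46 ± 1.05 RPKM. The receptors and adhesion molecules lay lower. Tek, the angiopoietin receptor Tie2, stood at 5.38 ± 0.50 RPKM, Flt1, the VEGF receptor 1 that also acts as a trap for ligand, at 5.29 ± 0.57 RPKM and Pecam1, the adhesion molecule CD31, at 4.72 ± 0.37 RPKM. Cdh5, the adherens junction protein VE-cadherin, had 4.41 ± 0.53 RPKM, and Kdr, the signalling VEGF receptor 2, was the lowest at 2.08 ± 0.24 RPKM. By an exact sign-flip test over the 16 libraries, two-sided and adjusted over the 8 neighbouring pairs, 7 neighbours differed, with adjusted p from 4.88e-05 to 0.00743. The exception was Tek over Flt1, with a mean log2 ratio of 0.03, Tek higher in 11 of 16 libraries and exact p = 0.353. These ranks depend on the length taken for each gene: with the longest GENCODE transcript in place of the union of exons, Slco1a4 at 32.5 RPKM stood above Cldn5 at 26.2 RPKM. Flt1, whose exon union of 13504 bases is far longer than its longest transcript of 6895 bases, then came to 10.4 RPKM. Slc2a1 was the highest and Kdr the lowest by both lengths.

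Read counts were ample for each member. The lowest count of any member in any library was 348 reads, for Cdh5, and the highest was 3795 reads, for Slco1a4. The coefficient of variation over the 16 libraries ran from 7.92% for Pecam1 to 12.2% for Slc2a1, while counting error alone would give 1.78% to 4.63%. The members' median of 11.1% lay above the median of 6.90% over the 6513 tested genes whose mean CPM was within the members' range. Levels measured on the first and the second flow cell correlated over libraries with r from 0.53 for Pecam1 to 0.98 for Slco1a4, and Kdr, Tek and Cdh5 also stayed under 0.75.

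**Figure D1:**
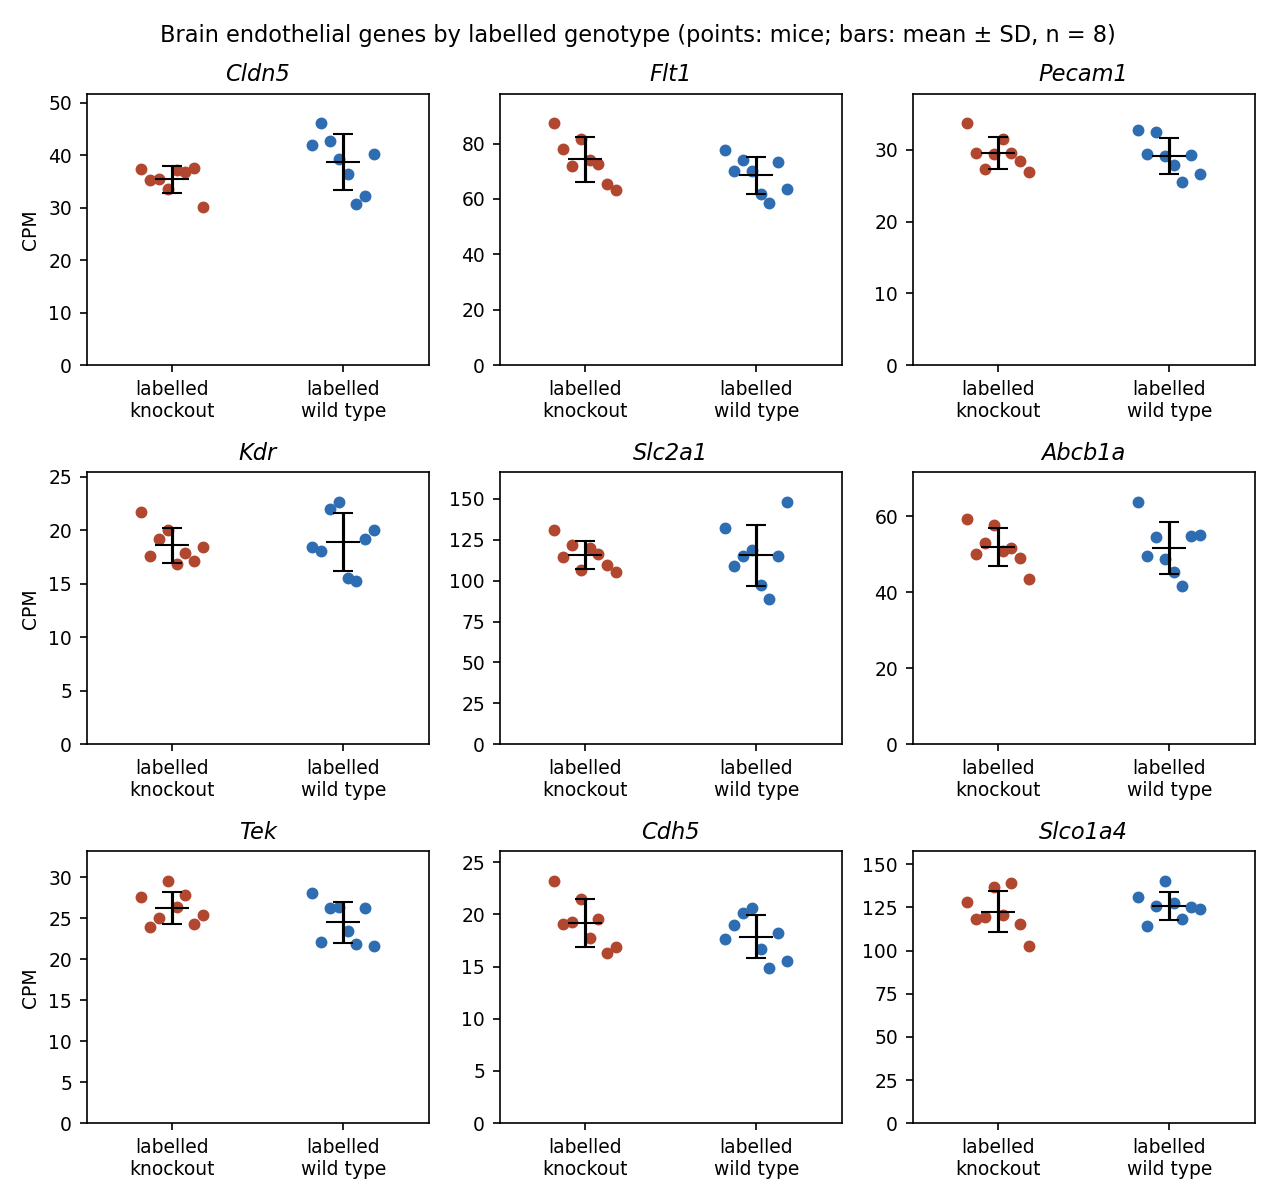
CPM of each endothelial gene in every mouse, labelled knockout left and labelled wild type right, with mean and SD (n = 8) as bars. The groups overlap in all 9 panels, and the labelled knockouts of Cldn5 all lie at or below 37.5 CPM.

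No member passed the test between the labelled genotypes. The test was the quasi-likelihood F test of edgeR with Benjamini-Hochberg adjustment over 15446 genes, called under 0.05, and it called 0 of 9 members, where 0% of all genes were called. At an unadjusted p under 0.05 it had 0 of 9 members, against 526 genes (3.41%), of which 295 were higher (1.91%) and 231 lower (1.5%) in labelled knockouts. In none of the 9 did the groups separate fully, which happened for 1 of all genes tested (0.00647%). Of the members 6 had a log2 fold change above 0, as had 50.3% of all genes, and their median was 0.0047, against 0.00039 for all genes.

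The junction and adhesion members had differences of both signs between the labelled groups. Cldn5 stood at 30.2, 36.1 and 37.5 CPM (lowest, median and highest) in labelled knockouts, against 30.7, 39.7 and 46.2 CPM in labelled wild types. Every labelled knockout was below the median of the labelled wild types, yet the lowest values of both groups nearly coincided. The log2 fold change of Cldn5 was -0.13 (95% interval from -0.28 to 0.03, adjusted p = 0.997 by edgeR). Cdh5 stood at 16.3, 19.2 and 23.2 CPM in labelled knockouts, against 14.8, 17.9 and 20.6 CPM in labelled wild types. For Cdh5 the log2 fold change was 0.10 (interval from -0.06 to 0.27, adjusted p = 0.997 by edgeR), and the ranges overlapped over most of their length. Pecam1 was at 26.9, 29.5 and 33.8 CPM in labelled knockouts, against 25.5, 29.2 and 32.8 CPM in labelled wild types, with an interval from -0.10 to 0.14 log2.

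Among the growth factor receptors, Flt1 and Tek had the larger differences. Flt1 ranged over 63.3, 73.4 and 87.6 CPM in labelled knockouts, against 58.5, 70.1 and 77.7 CPM in labelled wild types. Its log2 fold change was 0.11 (interval from -0.03 to 0.26, adjusted p = 0.997 by edgeR), and 6 of 8 labelled knockouts lay above the wild type median. Tek ranged over 23.9, 25.9 and 29.6 CPM in labelled knockouts, against 21.5, 24.8 and 28.1 CPM in labelled wild types, with a log2 fold change of 0.10 (interval from -0.03 to 0.23, adjusted p = 0.997 by edgeR). Kdr had 16.8, 18.2 and 21.7 CPM in labelled knockouts, against 15.2, 18.8 and 22.7 CPM in labelled wild types. For Kdr the interval ran from -0.19 to 0.14 log2, and the labelled wild types spread more widely on both sides.

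The barrier carriers had differences near 0. Slc2a1 stood at 105, 115 and 131 CPM in labelled knockouts, against 88.9, 115 and 148 CPM in labelled wild types. Its means were 116 ± 8.67 CPM in labelled knockouts and 116 ± 18.7 CPM in labelled wild types (SD, n = 8 each), with an interval from -0.17 to 0.17 log2. Abcb1a stood at 43.5, 51.3 and 59.2 CPM in labelled knockouts, against 41.8, 52.2 and 63.9 CPM in labelled wild types. Here the interval was -0.15 to 0.16 log2. Slco1a4 was at 103, 120 and 139 CPM in labelled knockouts, against 114, 126 and 141 CPM in labelled wild types, with an interval from -0.15 to 0.08 log2. A p that misses the threshold does not show that the labelled groups were alike, and the intervals give the differences that these mice leave possible.

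**Figure D2:**
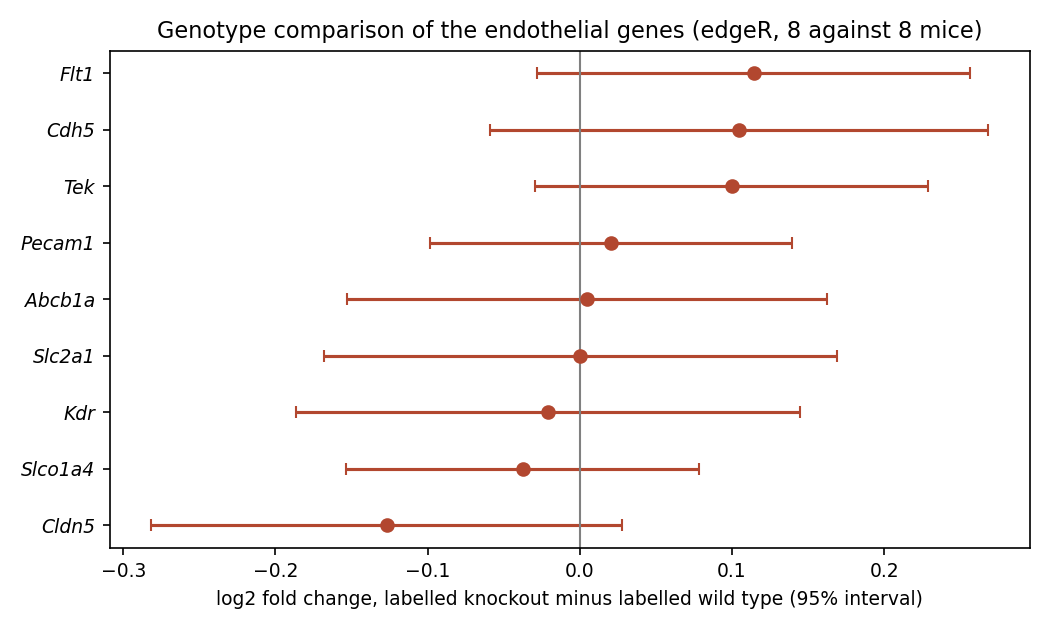
Log2 fold change (labelled knockout minus labelled wild type) of each member with its 95% interval, from edgeR over 8 against 8 mice. All 9 intervals cross 0, from Cldn5 at -0.13 to Flt1 at 0.11.

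Some of these counts may hold reads of other genes. Of the windows of 50 bases in the longest Abcb1a transcript, 17.0% also occur in transcripts of other genes, its paralogs Abcb1b and Abcb4, and such reads may be missing from the count or placed on the wrong copy. For Slco1a4, the neighbours of its family share 2.73% of the windows, and for the other 7 members the share was 0%. Abcb1b itself had 84 to 131 reads per library, with means of 4.18 CPM in labelled knockouts and 3.89 CPM in labelled wild types. Abcb4 was higher, with means of 8.85 CPM in labelled knockouts and 8.15 CPM in labelled wild types. On the opposite strand Gm42686 covers 10.1% of the exon bases of Abcb1a and Gm12868 covers 2.99% of those of Slc2a1, and no source used here states the strand setting of the counting.

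In 8 further lists, of genes of the endothelium and of signals that reach it, 0 of 134 tested genes were called. An unadjusted p under 0.05 was reached by 4 of them (2.99%), where the share over all genes was 3.41%. Of the 134 genes, 71 had a fold change above 0, with a median of 0.0045 log2. All genes named in this paragraph had adjusted p = 0.997 by edgeR. Among 20 barrier transporters, the organic anion carrier gene Slco2b1 stood at 34.5 ± 3.10 CPM in labelled knockouts and 31.1 ± 2.54 CPM in labelled wild types (SD, n = 8 each), and Tfrc, the transferrin receptor, had -0.11 log2. Among 16 junction and adhesion genes, with a median of -0.0022 log2, F11r, the junctional adhesion molecule A, had 0.11 log2 and Ctnnd1, a cadherin-binding catenin, had -0.05 log2. The 20 genes of VEGF and angiopoietin signalling had a median of 0.02 log2, with the co-receptor Nrp2 at 0.22 and the ligand Vegfc at -0.15.

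Of 14 genes of barrier Wnt signalling, Wnt7a, a ligand that brain endothelium receives from neural cells, stood at 14.7 ± 0.98 CPM in labelled knockouts and 13.0 ± 1.36 CPM in labelled wild types (SD, n = 8 each). The ligand gene Ndp, which encodes norrin, had -0.12 log2. The 16 endothelial transcription factors had a median of -0.06 log2, with Foxq1 at -0.17 and Klf4 at -0.21. Of 11 arterial genes tested, 2 had an unadjusted p under 0.05, the Notch ligand Jag1 and Sema3g, both at 0.21 log2, where 1.91% of all genes were higher at that p. The 7 venous genes tested had a median of 0.08 log2, with the atypical chemokine receptor Darc (now Ackr1) at 0.08 and Lrg1 at 0.27, the last at 0.52 CPM in labelled knockouts and 0.43 CPM in labelled wild types. In the pan-endothelial list, with 30 genes tested and a median of 0.0038 log2, Mmrn2 had 0.16 and Gpr116 (now Adgrf5) had 0.15 log2. By edgeR none of these genes passed the test, with adjusted p = 0.997 for each gene named.

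Lists of other cell types are given for the same comparison, since a punch mixes cells. All genes named here had adjusted p = 0.997 by edgeR, and 0 genes of any list were called. Perivascular fibroblast genes were above 0 in 10 of 11, with Fmod at 0.43 and Col1a1 at 0.25 log2, and with the mural level as a covariate Fmod had -0.01 and Col1a1 -0.03. Microglial genes were above 0 in 10 of 12, with Itgam at 0.21 and C1qb at 0.14, and 4 were higher at an unadjusted p under 0.05, where the share over all genes was 1.91%. Oligodendrocyte genes were below 0 in 11 of 11, with Mal at -0.24 and Mobp at -0.28, and 2 were lower at an unadjusted p under 0.05, where the share over all genes was 1.5%. The choroid plexus values rest on labelled knockout 1 and labelled wild type 7. With all mice Prlr had -0.75 and Aqp1 -0.45 log2, without that pair of libraries Prlr had -0.14 and Aqp1 0.41, and without labelled wild type 7 alone Prlr had 1.24 and Aqp1 2.20. The ependymal list had 3 of 7 genes above 0, with Mia at -0.62 and Foxj1 at -0.16. Of those 7 genes, 1 was lower at an unadjusted p under 0.05, where the share over all genes was 1.5%. Cortical neuron genes were above 0 in 0 of 8, with Neurod2 at -0.27 and Nrn1 at -0.30. Astrocyte genes were above 0 in 5 of 11, with Ntsr2 at -0.13 and Gjb6 at -0.17. Striatal projection neuron genes were above 0 in 11 of 12, with a median of 0.09, Penk at 0.17 and Rgs9 at 0.14. Over all genes 50.3% were above 0. Of the blood list only Alas2 was tested, at -0.05. The part of these cell types in the members' values was not tested beyond the relations below.

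The members were positively correlated from mouse to mouse, though in 13 of 16 libraries some members lay above their means and others below. Over the 16 libraries, log2 CPM was positively correlated in 35 of the 36 pairs of members, with a median r of 0.50. Across all 119281735 pairs of tested genes the median r was -0.001, and 6.80% of them were at or above the members' median. By a permutation test of r with 100000 resamples, two-sided and adjusted over the 36 pairs, 10 pairs were called, all positive. By Spearman's rho 8 were called, not all of them among those 10. The closest pair was Flt1 and Cdh5, with r = 0.85 (permutation p = 6e-05, adjusted p = 0.00216) and rho = 0.72 (permutation p = 0.00247, adjusted p = 0.0219). Without the libraries farthest from the median of Flt1, 2 in number, r was 0.72. Flt1 and Pecam1 had r = 0.82 (permutation p = 0.00018, adjusted p = 0.00324) and rho = 0.84 (permutation p = 0.00012, adjusted p = 0.00432), with r = 0.68 without such libraries. Flt1 and Abcb1a followed at r = 0.78 (permutation p = 0.00035, adjusted p = 0.0042) and rho = 0.74 (permutation p = 0.00135, adjusted p = 0.0219), with r = 0.67 without them.

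The other 7 pairs called by r were Slc2a1 with Abcb1a at r = 0.74, Flt1 with Tek at 0.73, Pecam1 with Abcb1a at 0.71, Kdr with Cdh5 at 0.69, Tek with Cdh5 at 0.68, Pecam1 with Cdh5 at 0.67 and Pecam1 with Tek at 0.64. Without the 2 libraries farthest from the median of the first gene named, r was lower for each. In the same order it was 0.71, 0.65, 0.54, 0.57, 0.48, 0.40 and 0.52. By r, Flt1, Pecam1 and Cdh5 each took part in 4 called pairs. Cldn5 and Slco1a4 took part in 0 by r, and their median r with the other 8 members was 0.29 and 0.41. By rho, Pecam1 was not called with Tek, Cdh5 or Abcb1a (permutation test, adjusted p = 0.0508, 0.0591 and 0.0768). Slco1a4 with Tek, not called by r, was called by rho (rho = 0.70, permutation test, adjusted p = 0.0219). Cldn5 and Tek made the pair with the lowest r, -0.08. Whether Cldn5 is tied less closely than the others was not tested, and with the mural level removed it took part in 3 called pairs, given further on.

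Single libraries bore on these counts. The library labelled wild type 6 was the lowest in 6 of the members, and without it 3 pairs were called in place of 10. Without the libraries labelled knockout 1 and wild type 7 there were 5 called pairs, and without wild type 8, where Slc2a1 was the highest of all libraries and Tek the lowest, there were 21. Within the labelled knockouts alone the median r over pairs was 0.59 and within the labelled wild types 0.51, with 34 and 36 of the 36 pairs positive. Where a gene was read on the first flow cell and its partner on the second, so that no read was shared, the median r was 0.45.

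**Figure D3:**
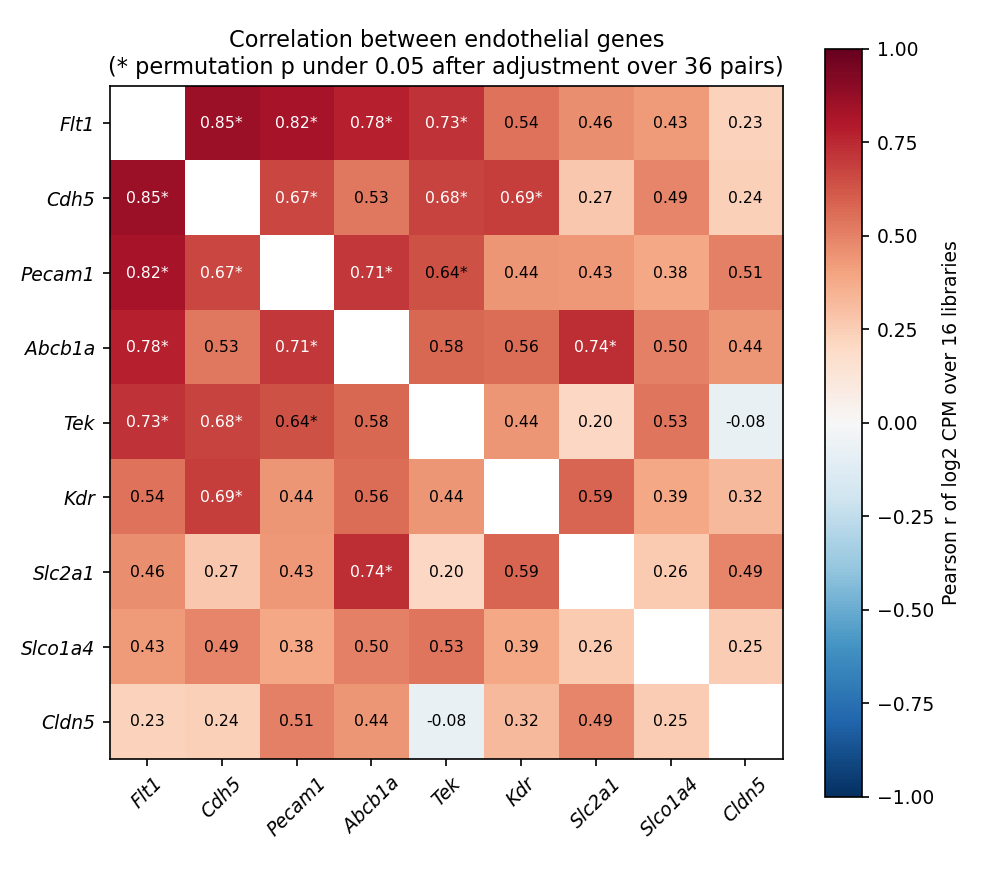
Pearson r of log2 CPM over 16 libraries for each pair of members, ordered by median r with the rest, with a star for pairs called after adjustment over 36 pairs. The called pairs gather around Flt1, Cdh5, Pecam1, Abcb1a and Tek, and Cldn5 with Tek is the pair below 0.

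Few libraries were high or low in all members. In the library labelled knockout 1, 9 of 9 members lay above their own median, with a mean of 0.18 log2 above the gene means. Labelled wild type 3 had 8 of 9 above the median, and labelled wild type 1 had 7 of 9 and a mean of 0.13 log2. At the other end, labelled wild type 6 had 0 of 9 above the median and a mean of -0.25 log2. Labelled knockout 8 had 1 of 9 with a mean of -0.15, and labelled wild type 5 had 1 of 9 with a mean of -0.13. High and low libraries thus occurred under both labels. Labelled wild type 8 was mixed, with its members from -0.24 to 0.37 log2 around their means.

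**Figure D4:**
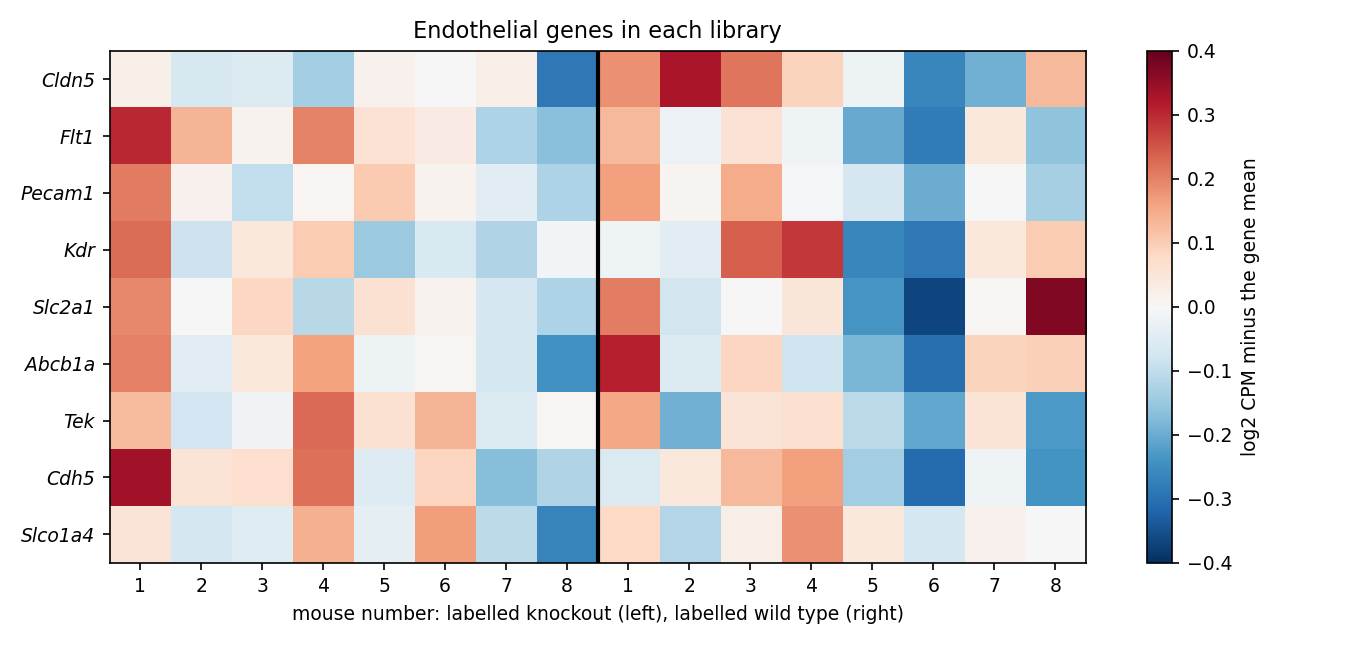
Log2 CPM of each member minus its mean over 16 libraries, by mouse number, with labelled knockouts left of the line and labelled wild types right. Labelled knockout 1 is at or above the mean in every row, labelled wild type 6 is below it in every row, and Slc2a1 reaches 0.37 in labelled wild type 8.

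Mural cell transcripts were high where Flt1 was high. Mural cells are the smooth muscle cells and pericytes that wrap vessels, and 11 of the 12 genes of their list were tested, with none at 0 and Cnn1 left out for low counts. The summed level of the 11 genes was 239 to 313 CPM in labelled knockouts and 220 to 277 CPM in labelled wild types. Of these, 10 had a log2 fold change above 0, as had 50.3% of all genes. An unadjusted p under 0.05 was reached by 3, all higher in labelled knockouts, against 1.91% of all genes. Among them Myh11 had 0.36 log2 and Acta2 0.32, with adjusted p = 0.997 for both by edgeR. Of 81 relations between a member and the mean level of a cell type list, Flt1 with the mural list was called, at r = 0.87 (permutation p = 5e-05, adjusted p = 0.00405) and rho = 0.86 (permutation p = 0.00011, adjusted p = 0.00891). Without the libraries farthest from the median mural level, again 2, r was 0.82. Tek, Pecam1 and Cdh5 had r of 0.72, 0.69 and 0.69 with the mural list, each with adjusted p = 0.0733 by permutation. The remaining members had lower r, at 0.62 for Abcb1a, 0.34 for Slco1a4, 0.24 for Kdr, 0.18 for Slc2a1 and -0.08 for Cldn5. Leaving out labelled wild type 4 raised the count of called relations to 5, and leaving out labelled knockout 2 or labelled wild type 8 raised it to 2. With the mural level as a covariate, the log2 fold change of Flt1 between labels was -0.02 in place of 0.11 and that of Cdh5 -0.01 in place of 0.10. With it removed from every gene, a setting added with the results in view, the median r over all pairs was 0.40 and 10 pairs were called, of which 5 were among the 10 called before. Flt1 and Cdh5 then had r = 0.72, and Flt1 and Tek had r = 0.30 and were no longer called. Cldn5 was then called with Pecam1 at r = 0.78 (permutation test, adjusted p = 0.0063), with Flt1 at 0.62 and with Abcb1a at 0.62 (adjusted p = 0.0392 for both).

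The remaining cell type lists had 0 called relations with the members. Flt1 with the perivascular fibroblast list, 11 genes of the vessel sheath, had r = 0.67 (permutation p = 0.00493, adjusted p = 0.0799), and Abcb1a with the astrocyte list had r = 0.60 (permutation p = 0.0132, adjusted p = 0.153). Choroid plexus levels fall apart into 2 libraries and the rest, so no member's r with that list over all 16 libraries is given. Those relations were nevertheless among the 81 tested and adjusted over. In the other 14 libraries the members' r with that list ran from -0.04 to 0.43, and the smallest unadjusted permutation p was 0.124.

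The number that the labels give each library was related to some members. How many of all tested genes relate to library number or other technical measures was not computed. Whether such relations are particular to the members was therefore not tested. Flt1 was lower in libraries with higher numbers, at r = -0.77 (permutation p = 0.00054, adjusted p = 0.0194) and rho = -0.74 (permutation p = 0.00154, adjusted p = 0.0315), over 36 relations of members with technical measures. Without the 2 libraries farthest from the median number, r was -0.69. Cdh5 had r = -0.68 and Pecam1 r = -0.67, each with adjusted p = 0.0442 by permutation, and Tek had r = 0.68 with the percent of reads in no gene, also at adjusted p = 0.0442. The values of r moved little while the calls did not hold. Flt1 with library number had r from -0.87 to -0.73 on leaving out single mice, -0.73 centred within labels and -0.84 without labelled knockout 1 and wild type 7. Yet 0 relations were called without labelled knockout 1, without labelled wild type 6, on the first flow cell alone or with values centred within labels. There was 1 called relation on the second flow cell alone, without labelled knockout 1 and wild type 7 together, and on leaving out labelled knockout 4, 6 or 7 or labelled wild type 2, 5 or 8. Library numbers were not balanced between labels, at 1 to 13 in labelled knockouts and 3 to 17 in labelled wild types. With library number as a covariate the log2 fold change between labels was 0.02 for Flt1 in place of 0.11, 0.0083 for Cdh5 in place of 0.10, 0.06 for Tek in place of 0.10 and -0.21 for Cldn5 in place of -0.13. Pecam1 then had -0.05 and Abcb1a -0.07, in place of values just above 0. With library number removed from every gene, a setting added with the results in view, 6 pairs of members were called and the median r was 0.45. What a library number stands for, beyond its place in the label, is stated in no source used here, and its part in the correlations was not tested.

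**Figure D5:**
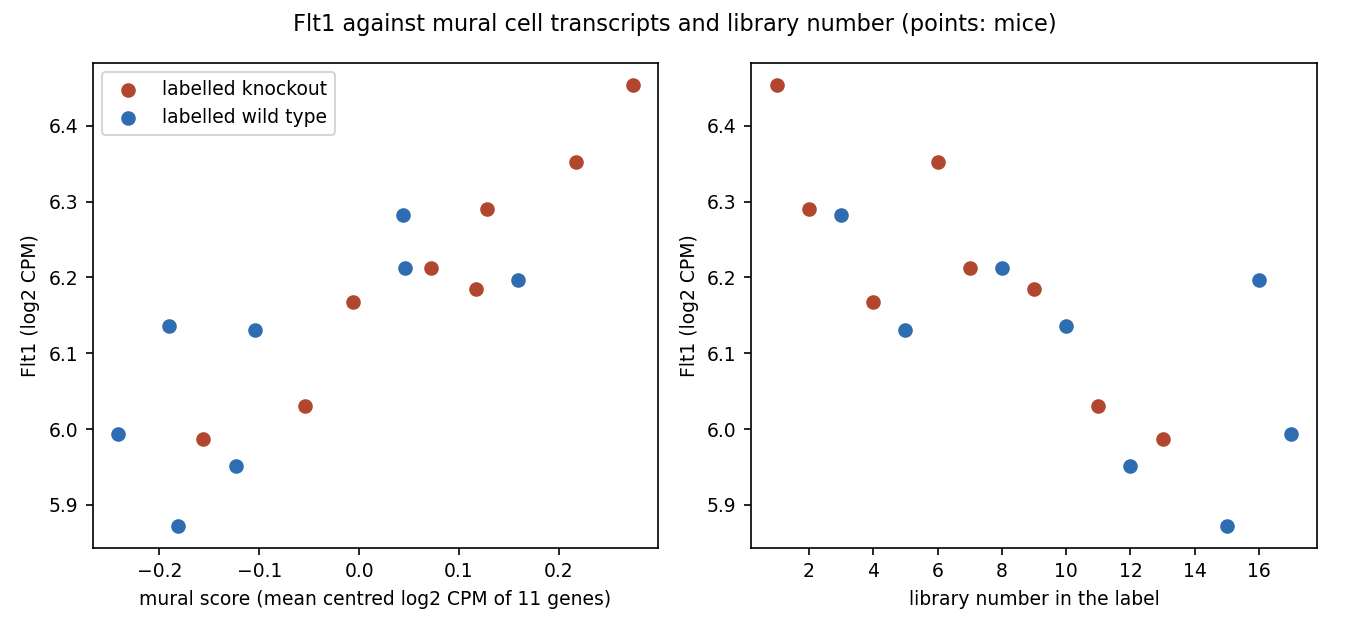
Flt1 (log2 CPM) against the mural level (mean centred log2 CPM of 11 genes, left) and against the library number in the label (right), with labelled knockouts and labelled wild types as points in 2 colours. Flt1 is higher where mural transcripts are higher (r = 0.87) and lower at higher library numbers (r = -0.77).

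The genes most alike in pattern were partly endothelial genes outside the list. Ranked by r over 16 libraries with the members' mean log2 CPM, the closest were Ptprb, an endothelial receptor phosphatase that binds Tie2, at 0.87, Gpr116 at 0.86, the phospholipid transfer protein gene Pltp at 0.84 and Tie1, a receptor related to Tie2, at 0.84. The Notch ligand Dll4 came in at 0.81. Genes of no endothelial list used here also ranked in the first 10, with Fkbp15 at 0.83, Arr3 at 0.81, Inpp5d and Grn at 0.80 and Abcb8 at 0.79, and Arr3 was measured at only 1.51 CPM. The ranking covered the 15446 tested genes apart from the 9 members. Of the 134 tested genes of the 8 further lists, 13 were among the first 100 of this ranking and 29 among the first 500. Of 11 mural genes, 3 were among the first 100 and 5 among the first 500. The first 500 also held 3 of 12 microglial and 1 of 11 perivascular fibroblast genes, and 0 of the remaining cell type lists. Places near the top were therefore not particular to endothelial genes. Their median r was 0.37, against 0.03 over all tested genes. By list the median was 0.47 for barrier transporters, 0.41 for pan-endothelial genes, 0.38 for junctions and adhesion, 0.34 for venous genes, 0.33 for VEGF and angiopoietin signalling, 0.32 for Wnt signalling, 0.27 for transcription factors and 0.17 for arterial genes. Lists of other cell types reached like values, with mural genes at 0.47, choroid plexus genes at 0.35 (labelled knockout 1 and labelled wild type 7 included), perivascular fibroblast genes at 0.33, microglial genes at 0.31 and astrocyte genes at 0.24. Ependymal genes stood at 0.12, striatal projection neuron genes at 0.09, oligodendrocyte genes at -0.07 and cortical neuron genes at -0.21.

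Single members had partners of their own. Flt1 was closest to Gpr116 at r = 0.91 and to Pdgfrb, the receptor that marks pericytes, at 0.90, and Cdh5 was closest to Ptprb at 0.90 and Pdgfb, the ligand that endothelium sends to pericytes, at 0.89. Pecam1 was closest to Gpr116 at 0.81, and Tek to Heg1 at 0.84 and 4932443I19Rik at 0.81. Among the carriers, Abcb1a was closest to Pltp at 0.87 and Hs1bp3 at 0.85, and Slc2a1 to Cyth3 at 0.88 and Ubxn11 at 0.82. Kdr was closest to Slc22a8, a barrier anion carrier, at 0.83 and to Gch1 at 0.80. Slco1a4 was closest to St3gal6 at 0.79 and Pcnt at 0.78, and Cldn5 to Rcc1 and Hdac7, both at 0.81. These values were the highest among all tested genes over 16 libraries that share scaling and dissection, and are descriptions.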

How the data were processed

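Striatal RNA of 16 mice was sequenced as 50-base single-end reads from a stranded oligo-dT library kit, per the labels' protocols. Whole-number read counts per gene for each of 4 lanes on 2 flow cells were deposited by the authors. Per the submitters' processing notes, the build was mm10 and the tools included HTSeq 0.6.1p1, TopHat2 2.0.0, edgeR 2.14 and FastQC 0.10.1. No source used here states the annotation or strand setting. Lane counts were summed per mouse, since lanes differed little beyond sampling noise. Chi-square per degree of freedom between lanes of a library was 1.001 to 1.028, where noise alone gives about 1. Rows that name no gene were left out of library sizes: reads in no gene made up 18.0% to 19.8%, ambiguous reads 0.765% to 0.834% and multiply placed reads 21.1% to 22.9%. Labelled knockouts and labelled wild types were compared with edgeR 4.0.16 (TMM scaling, filterByExpr, quasi-likelihood F test, Benjamini-Hochberg), tested on simulated data. Correlations used log2 CPM with a prior count of 2. Intervals are 95%. Members, gene lists and tests were chosen with earlier results of these data known. Genes named are Csnk1e, the members, the 2 genes of each list with the smallest p, the 10 genes most like the members' mean and the 2 most like each member, of which 1 is not reported here. Separate mice are given by the labels. Alternatives were DESeq2 1.42.0, limma 3.58.1, other scalings, filters, covariates, single flow cells and leaving out each mouse.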

Additional observations from a re-analysis of the deposited data

Results flagged for a closer look

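Within groups of 8 mice, single libraries stood far from the other 7 in 10 of 90 groups tested (45 genes in both labelled groups), none of them for a member. Chance alone gives about 1 in 20. Among choroid plexus genes, Prlr reached 23.67 CPM in labelled knockout 1 and 45.49 CPM in labelled wild type 7. Aqp1, a water channel gene, reached 12.63 CPM in labelled knockout 1 and 19.02 CPM in labelled wild type 7. C1qb, a complement gene of microglia, was at 73.99 CPM in labelled knockout 1, and F11r was at 14.12 CPM in labelled wild type 7. Labelled wild type 5 had Klf4 at 9.181 CPM, Itgam at 27.44 CPM and Rgs9 at 981.6 CPM. Nrp2 was at 13.92 CPM in labelled wild type 2.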

How the results depend on the processing

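No alternative called any gene or member between the labelled genotypes. The unadjusted count of 526 genes was 323 with library number as a covariate and 362 to 909 on leaving out single mice, the highest without labelled knockout 7. The labels do not say whether mice of the same replicate number were paired. Same-numbered deviations correlated at -0.338 to 0.0953, which cannot show whether they were. With a replicate block 0 genes were called and 356 had an unadjusted p under 0.05. Some log2 fold changes changed sign, and the cause was not tested. Slc2a1 had -0.00257 with RLE scaling, -0.00282 with DESeq2, -0.00189 with no low count filter, -0.00165 with a choroid plexus covariate and -0.0144 on flow cell 2. With library number as a covariate the values were Slc2a1 -0.0341, Pecam1 -0.0488, Abcb1a -0.0702 and Csnk1e -0.0181. With the mural covariate they were Slc2a1 -0.0283, Pecam1 -0.0698, Abcb1a -0.115, Flt1 -0.0218, Cdh5 -0.0112, Csnk1e -0.0572, F11r -0.0222, Fmod -0.0145 and Col1a1 -0.0265. Without labelled knockout 1 and labelled wild type 7 they were Slc2a1 -0.0284, Pecam1 -0.00798, Abcb1a -0.0119 and Aqp1 0.41. Pecam1 had -0.0103 with limma-voom. Flow cell 1 alone gave Kdr 0.0501 and Abcb1a -0.0085, and flow cell 2 alone gave Vegfc 0.00452 and Alas2 0.0256. Aqp1 had 0.332 with DESeq2, 0.28 with limma-voom, 0.114 with the replicate block, 0.258 with an Xist covariate and 0.198 with the choroid plexus covariate. On leaving out single mice the ranges were Abcb1a from -0.0368 to 0.0521, Slc2a1 from -0.0487 to 0.0596, Pecam1 from -0.00945 to 0.0447, Kdr from -0.0621 to 0.0189, Csnk1e from -0.0400 to 0.109, Alas2 from -0.108 to 0.0236, Prlr from -2.13 to 1.24 and Aqp1 from -2.24 to 2.20. Called pairs of members, 10 in all, numbered 3 to 21 on leaving out single mice, 5 without labelled knockout 1 and labelled wild type 7 and 6 with library number removed. Called relations with cell type lists numbered 1 to 5 on leaving out single mice. Called relations with technical measures, 4 in all, numbered 0 on flow cell 1, 1 on flow cell 2, 1 without labelled knockout 1 and labelled wild type 7, 0 centred within labels and 0 to 6 on leaving out single mice.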
